A study of Mus musculus with 6 samples.

Results

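Siglecs and other inhibitory receptors of myeloid cells were followed as 10 genes, chosen by name and read from a table of raw read counts that held 25751 gene IDs. They were the Siglec genes Siglec1, Siglece and Cd33, the pair Sirpa and Cd47, the immunoglobulin-like receptors Lilrb4a and Pirb, the CD300 receptors Cd300a and Cd300lf, and the CD200 receptor Cd200r1. All 10 passed the filter on low counts that left 14626 genes for testing. The libraries came from primary wild-type (WT) mouse myeloid cells: 3 libraries were controls and 3 received TMAO (trimethylamine N-oxide, a metabolite made in the liver from a product of gut bacteria). All 6 were labelled 24 h. The study asked what TMAO does to the transcriptome of these cells. The labels gave no dose, mouse strain, age or sex, and nothing in them makes the replicates separate animals or cultures, so the p-values speak for the spread of these samples alone, and it may be technical. The sample descriptions named the treated libraries T-BMDM and the others Control without explaining the difference, and the protocol named sequencers of 2 makers without assigning libraries to them. A difference in how the cells were obtained or sequenced therefore cannot be told apart from the treatment.

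Inhibitory receptors of myeloid cells bind ligands on neighbouring cells and restrain phagocytosis and activation. Many carry a short tyrosine motif in the cytoplasmic tail, the ITIM, which Src family kinases phosphorylate and which then recruits the phosphatases encoded by Ptpn6, Ptpn11 and Inpp5d. Siglecs recognise sialic acid on glycans, Sirpa recognises Cd47, and Cd200r1 recognises Cd200, so that each of these pairs reports the presence of other cells. Several families are paired, with activating relatives that lack the motif and signal through the adaptor Tyrobp or Fcer1g.

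The motif that gives these receptors their inhibitory function was located in the coding sequence of each principal transcript (GENCODE M21, build GRCm38), in the part after the last hydrophobic stretch. It was found in 6 of the 10 genes. The most membrane-proximal ITIM of each is shown because it is the feature these receptors share, with the tyrosine codon in capitals.
Siglece, tyrosine codon 432 of 467: atacatTATgcgaccctc
Sirpa, tyrosine codon 436 of 509: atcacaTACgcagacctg
Lilrb4a, tyrosine codon 300 of 335: attgtcTACgcccaggta
Pirb, tyrosine codon 713 of 841: agcctaTATgcttcagtg
Cd300a, tyrosine codon 262 of 318: gtggaaTATagcacattg
Cd300lf, tyrosine codon 234 of 330: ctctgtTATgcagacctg
Sirpa and Pirb held 3 such motifs, Lilrb4a, Cd300a and Cd300lf held 2, and Siglece held 1. A related switch motif, the ITSM, was found once each in Siglece, Sirpa and Cd300lf. No ITIM was found in Siglec1, Cd33, Cd47 or Cd200r1. The tails of Siglec1 and Cd47 held no tyrosine codon, that of Cd33 held 1 in 62 codons, and that of Cd200r1, which is known to signal through Dok adaptors, held 3 in 59 codons. Both directions occurred with and without the motif. Among all genes tested, 33.0% were called higher and 32.7% lower, and groups of 6 and 4 genes are too small to show whether the motif divides them. Of the 6 with an ITIM, 2 were higher, 3 were lower and 1 did not pass the test, and of the 4 without one, 1 was higher and 3 were lower.

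With TMAO, 3 of the 10 genes rose (Cd300lf, Siglece and Cd33), 6 fell (Siglec1, Pirb, Cd300a, Sirpa, Cd200r1 and Cd47), and Lilrb4a did not pass the test. Calls were made with edgeR's quasi-likelihood test at a Benjamini-Hochberg adjusted p of 0.05 over all genes tested. The background was high: 65.7% of all genes tested were called, 33.0% higher and 32.7% lower, and the groups did not overlap for 71.0% of them. The 9 calls, and the 9 genes whose groups did not overlap, are read against those shares, and most genes tested were called in this comparison. The median log2 fold change of the 10 genes was -0.57, beside 0.01 over all genes tested, and the values ran from -1.86 to 0.97. That background of 0.01 is not matched for transcript length, with which fold changes ran over all genes. Among 5 length bins, from the shortest to the longest, the median was 0.50, 0.28, 0.04, -0.21 and -0.57. Lengths of the 10 genes ran from 1381 bases (Lilrb4a) to 6387 bases (Siglec1). Levels are given as CPM, library-scaled read counts (TMM scaling), with SD over 3 libraries.

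**Figure D1:**
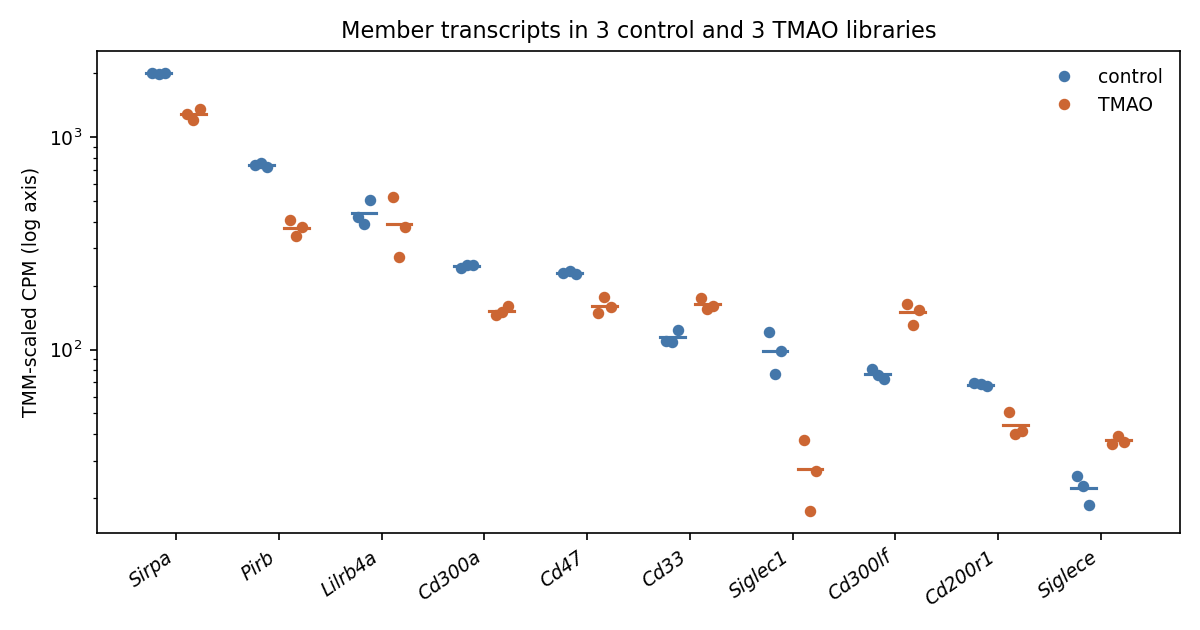
Level of each of the 10 receptor genes in CPM (vertical axis, log scale) in the 3 control and the 3 TMAO libraries, 1 point per library with a line at the group mean. Points of the groups are apart for every gene except Lilrb4a, whose TMAO libraries run from 272.6 to 523.5 CPM.

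Siglec1 (sialoadhesin, CD169, ENSMUSG00000027322), a macrophage adhesion receptor, showed the largest change of the 10. Its level was 121, 76.6 and 98.9 CPM in the control libraries and 37.6, 17.4 and 26.8 CPM in the TMAO libraries. Every TMAO library was below every control library, and the spread within each group was wide, with a coefficient of variation of 22.4% in control and 37.2% in TMAO. The fall was 3.62-fold (log2 fold change -1.86, SE 0.25, adjusted p = 8.96e-05), and 10.6% of genes tested changed by more. Siglece (ENSMUSG00000030474), an inhibitory Siglec of neutrophils, monocytes and macrophages, moved the other way. It was at 25.2, 22.8 and 18.5 CPM in control and at 36, 39.3 and 36.7 CPM with TMAO, so that all treated libraries lay above the controls. The rise was 1.68-fold (log2 fold change 0.75, SE 0.12, adjusted p = 0.000305). Cd33 (ENSMUSG00000004609), whose mouse product differs from the human one in its tail, was at 109, 109 and 124 CPM in control and at 175, 156 and 160 CPM with TMAO. The groups were again apart, by a 1.43-fold rise (log2 fold change 0.52, SE 0.09, adjusted p = 0.000537), and 59.3% of genes changed by more. The ratio of Siglec1 to Cd33 counts within a library was 0.869 ± 0.21 (SD, n = 3) in control and 0.165 ± 0.052 with TMAO.

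Of the 6 other Siglec genes, 5 were tested, with 3 called higher, 1 lower and 1 not called, a median log2 fold change of 1.26 and a range from -0.51 to 7.93. Siglech and Siglecg passed the filter on low counts only through their TMAO libraries, so a lower call was not open to them. The count of higher calls, the median and the top of the range rest in part on these genes. In control libraries all 6 were below 10 CPM, and Cd22, the most abundant and not called, was at 9.23 ± 0.44 CPM there and 8.42 ± 0.41 CPM with TMAO. Siglech, a marker of plasmacytoid dendritic cells, had no count in any control library and 40, 20 and 29 counts in the TMAO libraries, so that with 3 counts assumed for the control group as a floor it was at least 31.5-fold higher. Siglecg, known from B cells, had 0, 4 and 0 counts in control and 70, 40 and 75 with TMAO (adjusted p = 6.87e-05), and its fitted log2 fold change of 5.48 became 8.97 without control replicate 2, the only control library with a count. Siglecf, known from eosinophils, rose from 0.734 ± 0.13 to 1.76 ± 0.42 CPM (adjusted p = 0.00333). Mag, the Siglec of myelin, was lower at 1.67 ± 0.14 against 2.39 ± 0.16 CPM (adjusted p = 0.0465), a call that was lost under 9 of 18 alternative settings, where its adjusted p ran up to 0.109. Markers of other cells moved beside these genes. The summed level of 6 B cell markers was 2.44 to 3.58 CPM in control libraries and 11.7 to 15.8 CPM in TMAO libraries, with 5 of 6 called higher and Pax5 at 0 in the controls. The control sum was mostly Cd79b, which was not called, at 2.71 CPM in control and 2.51 CPM with TMAO. The largest marker with TMAO was Igkc, at 0.0162 CPM in control and 6.36 CPM with TMAO. The sum of 4 eosinophil markers was 2.44 to 3.08 and 6.91 to 8.97 CPM, with 1 of the 2 tested called higher and 1 lower. It was mostly Ccr3 in control, at 2.67 CPM against 0.774 CPM with TMAO. With TMAO it was mostly Prg2, at 0.0242 CPM in control and 6.63 CPM with TMAO. The part of such cells in the Siglec results was not tested.

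Sirpa (ENSMUSG00000037902), the receptor for the "don't eat me" signal, was the most abundant of the 10. Its level was 2012, 1978 and 2009.9 CPM in control and 1286, 1211 and 1352 CPM with TMAO. The controls lay within a coefficient of variation of 0.954%, far above all treated libraries, and the fall was 1.56-fold (log2 fold change -0.64, SE 0.08, adjusted p = 6.68e-05). Its ligand Cd47 (ENSMUSG00000055447) was at 228, 234 and 228 CPM in control and at 148, 177 and 158 CPM with TMAO. This 1.43-fold fall (log2 fold change -0.51, SE 0.09, adjusted p = 0.000462) was lost when the trend of fold change on transcript length was removed (log2 fold change -0.09, adjusted p = 0.44). Fold changes ran with transcript length over all genes, from a median of 0.50 among the shortest genes to -0.57 among the longest, when genes were cut by length into 5 equal bins. For Cd47 the length used was 5250 bases, that of its longest protein-coding transcript, whereas its principal transcript has 1316 bases. Whether the fall is also lost with that shorter length was not tested. The bins with median lengths of 887 and 1859 bases, between which 1316 lies, had median log2 fold changes of 0.50 and 0.28. The Sirpa to Cd47 count ratio was 8.69 ± 0.22 (SD, n = 3) in control and 8.02 ± 1.0 with TMAO, and the ranges overlapped (exact permutation test, two-sided p = 0.3). That p does not show that the ratios were equal.

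None of the 3 activating relatives of Sirpa listed was called lower. Sirpb1c rose from 60.1 ± 2.1 to 81.1 ± 10.4 CPM (log2 fold change 0.43, adjusted p = 0.00444) and Sirpb1a from 12.8 ± 0.81 to 20.1 ± 1.6 CPM (0.65, adjusted p = 0.000461), while Sirpb1b was at 14.6 ± 2.2 and 18.1 ± 1.2 CPM and was not called (adjusted p = 0.058, and as low as 0.0107 over the alternatives). These 3 were named after their values were seen. Sequence shared among these 3 was not counted, so how far reads were split between them is not known. The Sirpa to Sirpb1c ratio was 33.3 ± 1.2 in control libraries and 15.9 ± 1.5 in TMAO libraries. Thbs1, a matrix protein that binds Cd47, rose 9.63-fold, from 294 ± 59 to 2830.2 ± 572 CPM (log2 fold change 3.27, SE 0.18, adjusted p = 2.41e-07).

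Pirb (ENSMUSG00000058818), an inhibitory receptor for MHC class I, had levels of 736, 754 and 724 CPM in control and 406, 343 and 377 CPM with TMAO. All treated libraries were far below the controls, a 1.97-fold fall (log2 fold change -0.98, SE 0.09, adjusted p = 5.86e-06). Part of its sequence is not its own: 30.1% of the 75-base windows of its transcript also occur in transcripts of other genes, among them 16.7% in Pira2 and 17.8% in Gm14548, so reads may have been split between them. The activating relative Pira2 fell further, from 67.4 ± 7.3 to 18.2 ± 7.8 CPM (log2 fold change -1.89, SE 0.25, adjusted p = 8.49e-05), and the Pirb to Pira2 ratio was 11.1 ± 1.5 in control and 23 ± 8.2 with TMAO. Pira2 was chosen after its values were seen.

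Lilrb4a (ENSMUSG00000112148), also called gp49B, is an ITIM receptor of myeloid and mast cells. It was at 419, 389 and 509 CPM in control and at 524, 273 and 379 CPM with TMAO. The highest and the lowest of the 6 values were both TMAO libraries, and the groups overlapped (log2 fold change -0.16, SE 0.20, adjusted p = 0.485). Single libraries decided its direction. Without TMAO replicate 1 it was called lower (log2 fold change -0.43, adjusted p = 0.0195), and without TMAO replicate 2 the value was 0.04 (adjusted p = 0.825). Its neighbour Lilr4b (gp49A), which lacks an ITIM in the tail found here, was at 1084 ± 24 CPM in control and 1371 ± 225 CPM with TMAO (log2 fold change 0.34, adjusted p = 0.0249). Lilr4b no longer passed after removal of the length trend (0.09, adjusted p = 0.54), nor without control replicate 1 or 3 or TMAO replicate 1 or 3, where the adjusted p ran from 0.068 to 0.0949. The Lilrb4a to Lilr4b ratio was 0.405 ± 0.061 and 0.281 ± 0.045 without overlap. Of the 75-base windows of Lilrb4a, 19.7% also occur in Lilr4b, and all of them in Gm49339, a gene model that spans both and received 2 counts in the 6 libraries together. Lilr4b was chosen for this comparison after its values were seen.

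The CD300 receptors bind lipids of the cell membrane, and the genes form a cluster on chromosome 11. Cd300a (ENSMUSG00000034652) was at 243, 251 and 250 CPM in control and at 146, 151 and 161 CPM with TMAO. The groups were far apart relative to their spread, with a 1.62-fold fall (log2 fold change -0.70, SE 0.08, adjusted p = 2.84e-05). Cd300lf (ENSMUSG00000047798), also known as the receptor of murine norovirus, was at 81.1, 75.8 and 72.3 CPM in control and at 165, 131 and 153 CPM with TMAO. All TMAO libraries were higher, a 1.96-fold rise (log2 fold change 0.97, SE 0.10, adjusted p = 1.68e-05). The ratio of Cd300a to Cd300lf counts was 3.25 ± 0.23 in control and 1.03 ± 0.14 with TMAO.

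Among 9 other CD300 and CD200 receptor genes, 7 were tested, with 2 called higher, 4 lower and 1 not called, and a median log2 fold change of -0.35. Cd300lb, an activating relative, fell from 239 ± 4.2 to 138 ± 10.6 CPM (log2 fold change -0.79, adjusted p = 1.97e-05), Cd300ld fell by 0.40 on the log2 scale, and Cd300e by 0.89 from 5.79 CPM. Cd300c rose from 0.107 to 0.715 CPM. The Cd300lf to Cd300lb ratio was 0.32 ± 0.024 in control and 1.08 ± 0.051 with TMAO, and the Cd300lf to Cd300ld ratio 0.574 ± 0.018 and 1.48 ± 0.10. Cd300lf shares 3.35% of its windows with Cd300ld, and Cd300a shares 1.44% with Cd300c2.

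Cd200r1 (ENSMUSG00000022667), the inhibitory receptor for Cd200, was at 69.4, 68.5 and 67.4 CPM in control and at 50.7, 40.1 and 41.5 CPM with TMAO. The controls were nearly alike and above every treated library, and the fall was 1.55-fold (log2 fold change -0.63, SE 0.10, adjusted p = 0.000367). Its activating relative Cd200r4 rose 2.60-fold, from 33.6 ± 2.3 to 87.2 ± 6.8 CPM (log2 fold change 1.38, SE 0.10, adjusted p = 1.15e-06). The order of the pair changed: the Cd200r1 to Cd200r4 count ratio was 2.11, 1.89 and 2.12 in the control libraries and 0.545, 0.452 and 0.520 in the TMAO libraries. The ligand Cd200 was at 20.8 ± 1.1 and 22.2 ± 0.79 CPM and was not called, but with a GC trend removed it was called higher (adjusted p = 0.0222). Only 0.77% of the windows of Cd200r1 also occur in Cd200r4.

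**Figure D2:**
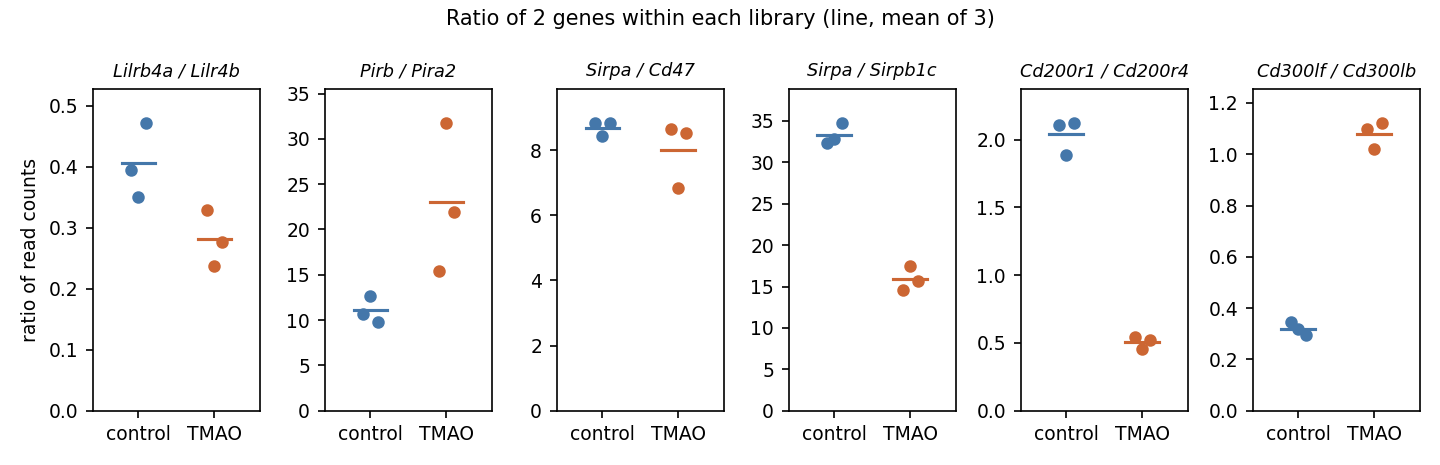
Ratio of the read counts of 2 genes within each library (vertical axes, starting at 0) for 6 of the 11 ratios computed, with 1 point per library and a line at the mean of 3. The Cd200r1 to Cd200r4 ratio goes from 2.04 to 0.505, and the Sirpa to Cd47 ratio is the one whose groups overlap.

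In all, 11 such ratios were computed, for pairs chosen after the counts had been seen, and they are given as descriptions. For 10 of them the groups did not overlap, where the exact two-sided permutation test of 3 against 3 libraries gave p = 0.1, the smallest it can give (0.11 after Benjamini-Hochberg adjustment over the 11). The others not named above were Sirpa to Tyrobp, 2.19 ± 0.24 and 1.25 ± 0.15, and Pilra to Pilrb1, 4.92 ± 0.12 and 3.49 ± 0.43. Transcript lengths within a pair could be unlike, as for Sirpa (3982 bases) and Tyrobp (597) or Cd300a (4645) and Cd300lf (1885). The length trend was not removed from any ratio, and its part in them was not tested.

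**Figure D3:**
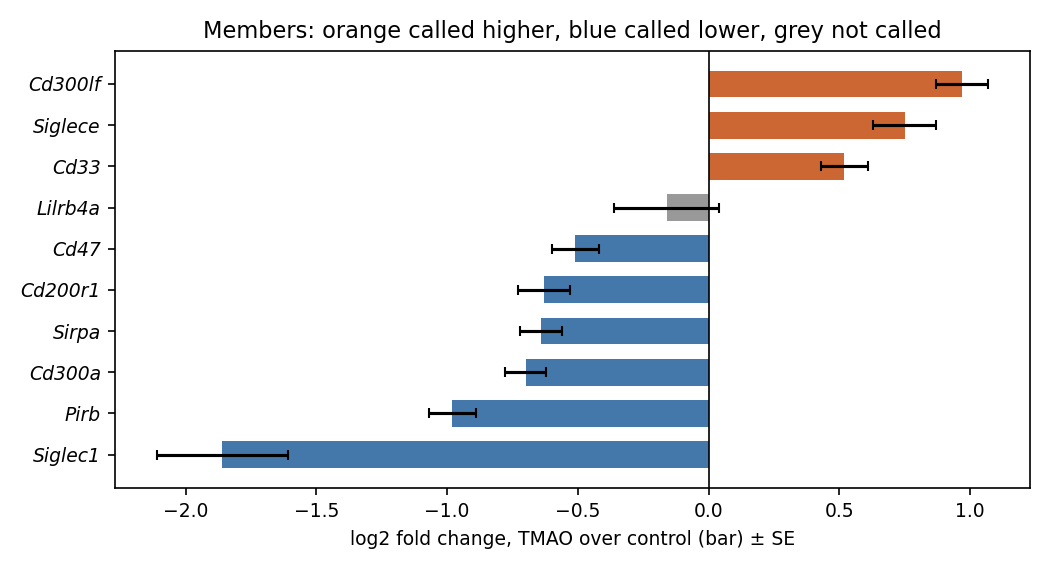
Log2 fold change of TMAO over control (horizontal axis) for each of the 10 receptor genes, drawn as a bar with an error line of 1 SE from edgeR (orange called higher, blue called lower, grey not called). Siglec1 stands lowest at -1.86, Cd300lf highest at 0.97, and Lilrb4a lies near 0 with an error line that spans it.

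Per kilobase of the longest protein-coding transcript, Sirpa led in control libraries at 502 ± 4.8 CPM per kb, followed by Lilrb4a at 318 ± 45 and Pirb at 193 ± 3.9. Cd300a, Cd47, Cd300lf and Cd200r1 followed between 53.4 and 36.2, then Cd33 at 19.9 ± 1.5, Siglec1 at 15.5 ± 3.5 and Siglece at 12 ± 1.9. Only the ranges of the last pair, Siglec1 and Siglece, overlapped among neighbours in that order. The place of Cd47 rests on a length of 5250 bases. Per kb of its principal transcript, which has 1316 bases, its level would be higher. The ranks with TMAO and the shares given below also rest on the length of 5250 bases. With TMAO, Sirpa at 322 ± 17.7 and Lilrb4a at 284 ± 91 overlapped, Pirb followed at 98.2 ± 8.2, and Cd300lf moved up from rank 6 to rank 4 at 79.4 ± 9.1. Cd300a, Cd47 and Cd33 lay between 32.8 and 28.5 with overlapping ranges between neighbours, Cd200r1 at 23.3 ± 3.1 overlapped Siglece at 20.2 ± 0.93, and Siglec1 came last at 4.27 ± 1.6. Of the summed level of the 10 genes, Sirpa made up 40.7% in control and 35.2% with TMAO, and Cd300lf 3.29% and 8.61%.

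The TMAO libraries differed among themselves. TMAO replicate 2 was the lowest of its group for 7 of the 10 genes, and TMAO replicate 1 was the highest for 6. Replicate 2 also stood furthest along the length trend, with medians of 0.43 in the shortest and -0.36 in the longest of the 5 length bins, beside 0.11 and -0.14 in TMAO replicate 1. Among the 6628 genes tested whose mean reached 20 CPM, the median coefficient of variation was 6.73% in control and 9.04% in TMAO libraries. Siglec1 and Lilrb4a exceeded these medians in both groups. Siglece exceeded the control median at 15.5% and was below that of TMAO at 4.59%, as were Cd33, Sirpa, Cd47, Pirb and Cd300a.

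Fewer cells of a type and less RNA per cell cannot be told apart in these bulk libraries, and markers of myeloid cell types moved with the receptor genes. The summed level of 12 neutrophil markers was 269 to 291 CPM in control and 3930 to 5126 CPM in TMAO libraries, with 11 of 12 called higher and Mmp8 not called. The control sum was mostly Mmp8, at 232 ± 4.5 CPM in control and 250 ± 26 CPM with TMAO. All 7 monocyte markers were called higher, with sums of 177 to 227 and 1013 to 1066 CPM. Of 12 macrophage markers, 4 were higher and 5 lower, and the sum was 8625 to 9191 in control and 6512 to 6791 CPM with TMAO. Adgre1 (F4/80) fell from 1705 ± 57 to 526 ± 67 CPM, and Mertk, Fcgr1 and Cd68 fell by 3.31, 2.07 and 0.81 on the log2 scale. Csf1r was called lower (log2 fold change -0.28, adjusted p = 0.0303), a call lost under 5 and reversed under 1 of 18 alternative settings. By contrast, C1qa, C1qb, C1qc and Mrc1 were called higher. The call of C1qc (adjusted p = 0.0498) was lost under 9 and reversed under 3 of 18 alternative settings, and that of Mrc1 was lost without control replicate 2 (adjusted p = 0.0563). Csf1r and Cd68 were abundant in all 6 libraries, at means of 2560.1 and 2324 CPM in control and 2108 and 1324 CPM with TMAO, as for cells of the myeloid lineage. Sums of 6 dendritic cell markers were 58.5 to 60.3 and 30.8 to 35.1 CPM. Dendritic cell markers were 4 higher and 1 lower, the sum being mostly Itgax. Sums of 3 megakaryocyte markers, all called higher, were 40.9 to 62.1 and 318 to 505 CPM, mostly Pf4 at 50.9 and 383 CPM. Those of 5 T and NK cell markers were 0.206 to 0.509 and 1.87 to 2.5 CPM, and those of 3 mast cell and basophil markers 0.145 to 0.618 and 7.06 to 9.39 CPM. The T and NK sum with TMAO was mostly Nkg7, the one marker of that list tested, at 0 in control and 1.96 CPM with TMAO. Cd3e was at 0 in all TMAO libraries, Cd3g and Cd3d were at 0 in control with 2 and 4 counts in 1 TMAO library, and Klrb1c was at 0.359 and 0.113 CPM. The mast cell and basophil sum was mostly Hdc, also the one tested, at 0.325 and 7.64 CPM, and Mcpt8 was at 0 in control. The part of changing cell types in the receptor results was not tested.

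Other paired and inhibitory receptors went both ways. Of 20 listed, 19 were tested, with 10 called higher, 7 lower and 2 not called, a median log2 fold change of 0.34 and a range from -2.02 to 1.81. Lair1, a collagen receptor with ITIMs, fell 4.06-fold, from 298 ± 21 to 73.5 ± 3.8 CPM (log2 fold change -2.02, SE 0.09, adjusted p = 5.4e-08). Vsir, which encodes the checkpoint receptor VISTA, fell 3.86-fold, from 439 ± 0.29 to 114 ± 13 CPM (adjusted p = 1.32e-07), and Clec12a, an inhibitory C-type lectin, fell from 525 ± 27 to 231 ± 27 CPM (adjusted p = 3.98e-06). Lair1 and Vsir fell by more than any of the 10 receptor genes, and Clec12a by more than any but Siglec1. The activating genes Pilrb1, from 15.1 ± 1.8 to 40.0 ± 5.6 CPM, and Pilrb2, from 16.6 ± 3.2 to 43.2 ± 5.0 CPM, rose by 1.41 and 1.38 on the log2 scale, and Pecam1 rose by 1.81 from 1.21 CPM. Sequence shared between Pilrb1 and Pilrb2 was not counted.

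**Figure D4:**
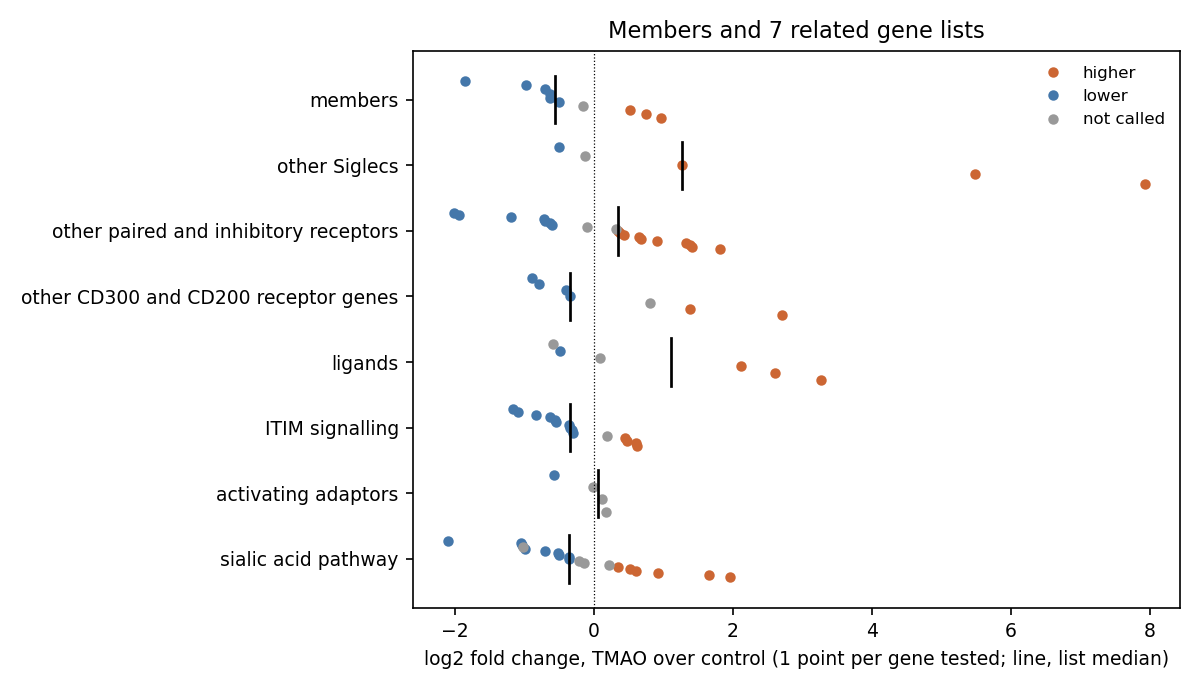
Log2 fold change of TMAO over control (axis in log2 units) for the genes of each list, 1 point per gene tested, coloured by its call, with a line at each list's median. The 10 receptor genes (members) stand beside the 7 related lists. The lists spread to both sides of 0, with medians from -0.57 for the 10 receptor genes to 1.26 for the other Siglecs. That list includes Siglech and Siglecg, which passed the filter on low counts only through TMAO libraries.

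Ligands of these receptors, Cd47 apart, were 6 genes, of which 3 rose, 1 fell and 2 were not called, with a median log2 fold change of 1.10. Besides Thbs1, Cd24a, the ligand of Siglecs on many cells, rose 6.11-fold, from 22.9 ± 1.8 to 140.1 ± 10.6 CPM (adjusted p = 2.15e-08), and Spn, a sialylated surface mucin that Siglec1 binds, rose 4.31-fold, from 14.1 ± 2.4 to 60.8 ± 8.2 CPM. Selplg fell by 0.49 on the log2 scale. Of 19 genes tested for the making and removal of sialic acid, 6 rose, 9 fell and 4 were not called, with a median of -0.36. The largest fall was that of the polysialyltransferase gene St8sia4, 4.29-fold from 123 ± 21 to 28.5 ± 2.8 CPM, with a log2 fold change of -2.10 that became -1.34 when the length trend was removed. St3gal5 and St3gal2 fell by 1.05 and 1.04 on the log2 scale. Cmas, which activates sialic acid, rose by 0.92 from 55.5 ± 1.7 CPM, St3gal6 rose by 1.96 from 0.262 CPM, and Cmah rose by 1.65 from 0.198 CPM with overlapping groups (adjusted p = 0.0273, and up to 0.133 with a library left out).

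Downstream of the motif, 15 genes of ITIM signalling were tested, and 10 were lower, 4 higher and 1 not called, with a median of -0.34 and a range from -1.17 to 0.62. The phosphatase gene Inpp5d (SHIP1) fell from 287 ± 16 to 161 ± 18 CPM (log2 fold change -0.84, adjusted p = 3.75e-05), the kinase gene Fgr from 177 ± 5.1 to 82.6 ± 6.3 CPM (-1.10) and Rasa1 from 71.2 ± 6.5 to 31.7 ± 5.8 CPM (-1.17). Those that rose most were Dok3, an adaptor, at 75.5 ± 7.5 and 116 ± 5.0 CPM (0.62), Fyn (0.61) and Dok2 (0.47). Ptpn6 and Ptpn11, the phosphatases most often tied to ITIMs, were named after their values were seen. Ptpn6 fell by 0.32 on the log2 scale. Ptpn11 was called lower at -0.34, a call lost without control replicate 1 or 3 or TMAO replicate 2 or 3 (adjusted p from 0.0551 to 0.0737), and its value was 0.11 with the length trend removed. Of 4 activating adaptor genes, only Syk was called, lower at 388 ± 42 against 581 ± 33 CPM (-0.58, adjusted p = 0.000445), a call lost when the length trend was removed (adjusted p = 0.0612). Tyrobp was at 920 ± 97 and 1035 ± 101 CPM and was not called, but after removal of the length trend it was called lower, by -0.33 on the log2 scale (adjusted p = 0.00128). Over the 7 lists together, 28 of 75 genes tested were higher and 33 lower, with a median of -0.13.

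Promoter windows of 250 bases before the RefSeq start site (build GRCm38.p6, older than the authors' GRCm39) were matched by symbol for 6 of the 10 genes. They were searched on both strands for 4 motifs picked after the directions were known. The first was GAGGAA, the core of sites bound by the myeloid factor PU.1, whose matches on the other strand appear below as its reverse complement. The other 3 were an interferon-type motif, the CCAAT box and a TATA box. The first motif was found in 5 of the 6, with 3 matches each in Siglece and Pirb and 1 each in Cd33, Cd300a and Cd300lf, and in 23.3% of all 32851 windows. Siglece and Cd300lf, which rose, and Pirb and Cd300a, which fell, are shown because the motif is in both kinds, with its letters in capitals.
Siglece, chr7:43660162-43660411, minus strand: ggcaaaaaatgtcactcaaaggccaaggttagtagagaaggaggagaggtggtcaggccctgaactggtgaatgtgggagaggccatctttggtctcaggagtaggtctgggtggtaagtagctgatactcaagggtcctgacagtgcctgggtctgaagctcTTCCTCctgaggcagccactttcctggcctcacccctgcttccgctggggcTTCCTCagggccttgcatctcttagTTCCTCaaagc
Cd300lf, chr11:115133993-115134242, minus strand: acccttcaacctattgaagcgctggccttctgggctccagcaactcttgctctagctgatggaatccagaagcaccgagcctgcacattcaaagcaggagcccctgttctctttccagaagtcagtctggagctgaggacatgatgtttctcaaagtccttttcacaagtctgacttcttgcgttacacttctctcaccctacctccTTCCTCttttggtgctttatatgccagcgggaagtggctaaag
Pirb, chr7:3720383-3720632, minus strand: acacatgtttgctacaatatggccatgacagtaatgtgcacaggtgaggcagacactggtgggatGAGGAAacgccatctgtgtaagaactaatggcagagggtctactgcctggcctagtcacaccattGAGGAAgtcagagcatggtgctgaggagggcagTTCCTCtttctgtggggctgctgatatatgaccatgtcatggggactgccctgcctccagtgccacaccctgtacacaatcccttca
Cd300a, chr11:114889791-114890040, plus strand: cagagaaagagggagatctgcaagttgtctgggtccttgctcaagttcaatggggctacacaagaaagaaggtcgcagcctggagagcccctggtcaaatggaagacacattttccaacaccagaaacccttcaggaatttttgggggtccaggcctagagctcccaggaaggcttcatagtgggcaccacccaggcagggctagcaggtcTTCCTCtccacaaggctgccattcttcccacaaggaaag
A match is only a description of these letters. The windows of Cd47 held no match to any of the 4 motifs. The interferon-type motif, a GAAA that recurs after 2 free bases, was present in 2.98% of all windows and in none of the 6 genes. The CCAAT box was present in 33.8% of all windows and, among these genes, in that of Cd33. The TATA box was searched as TATAAA, which was present in 12.4% of all windows and, among these genes, in that of Cd300lf.

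**Figure D5:**
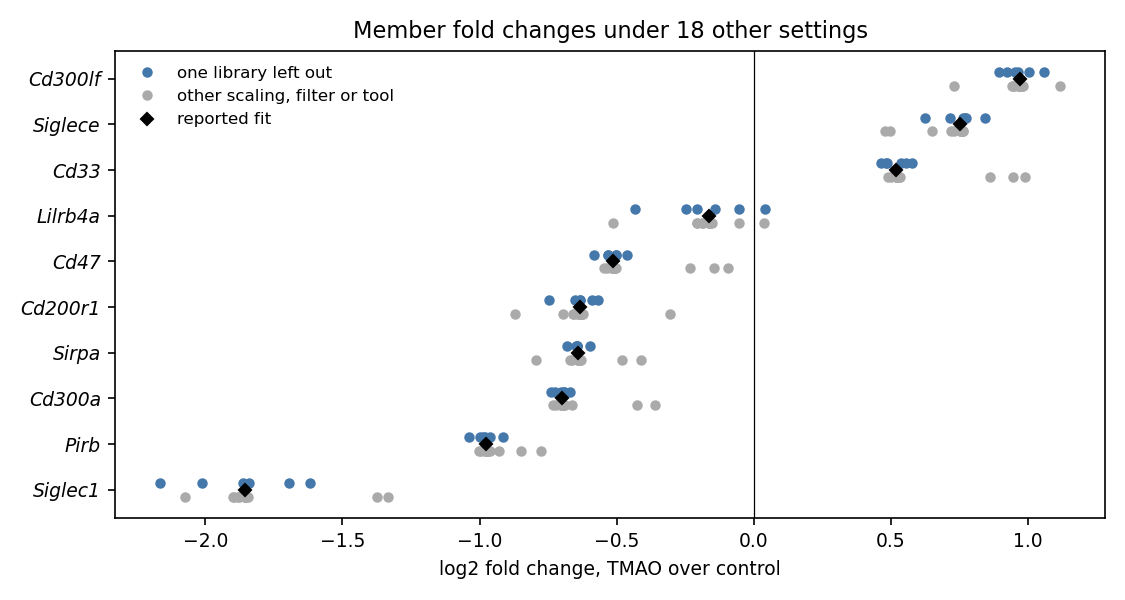
Log2 fold change of TMAO over control (horizontal axis) of the 10 receptor genes as reported and under 18 other settings, with the 6 that leave out 1 library drawn apart. For 8 genes all points stay on 1 side of 0 and past the threshold, Cd47 reaches -0.09, and Lilrb4a runs from -0.51 to 0.04.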

How the data were processed

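Raw counts by Ensembl gene ID, whole numbers without normalization, were deposited by the authors for poly(A)-selected, paired-end RNA-seq libraries, per the labels' protocols. Per the submitters' processing notes the genome build was GRCm39. For the aligner, counter, strand setting and annotation, the sources used here give nothing. Groups and replicate numbers came from the titles. Library totals were 37759007 to 41735109 counts, and no pair of libraries in a group agreed within sampling noise (chi-square per degree of freedom 13 to 65.6). Of 25751 IDs, 25386 were given symbols and transcript lengths from GENCODE M21 (GRCm38). Antisense and overlapping genes cannot be told apart without a stated strand setting. Genes were tested with edgeR 4.0.16 in R 4.3.3 (filterByExpr with a minimum count of 10, TMM, quasi-likelihood F test, Benjamini-Hochberg adjustment over 14626 genes), after a test on simulated data. An SE is the log2 fold change divided by the square root of F. Floors cover counting error only. Alternatives used DESeq2 1.42.0, limma 3.58.1, other scalings and filters, a replicate block and left-out libraries.

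The receptor genes, the 7 related lists and the 9 marker lists were chosen with earlier results of these data known, so none is independent evidence. From each list, up to 3 genes with the highest fold change among those called higher and 3 with the lowest among those called lower were named. Count ratios, promoter motifs, relatives outside this rule, the minimum of 20 CPM for coefficients of variation and the removal of a GC trend were chosen after values had been seen. A further 2 choices were revised after a first look at their output. Transcript length was first that of the longest transcript of any type and became that of the longest protein-coding transcript, and the transcript scanned for tail motifs became the principal one after that of Cd33 gave an odd tail. The tail was taken after the last stretch of 19 codons with a mean hydropathy above 1.6. St6galnac2 matched more than 1 ID and was left out.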

Additional observations from a re-analysis of the deposited data

How the results depend on the processing

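Alternatives were run for the 10 receptor genes and 50 other named genes, 18 each, except 17 for Cd300c, Cmah, Siglech and St3gal6, which the filter of 1 CPM in 3 libraries removed. Of these, 8 receptor genes and 37 others had the same direction and side of the threshold under each. Genes called ranged from 8629 to 9931 with a library left out and reached 10038 with no filter on low counts, against 9608 as reported. Receptor genes called were 9, except 8 with the length trend removed and 10 without TMAO replicate 1. Cd47, with its length taken as 5250 bases, was lost with the length trend removed, at -0.09 (adjusted p = 0.44). With the length first used, the longest transcript of any type, it was also lost (-0.14, adjusted p = 0.228), Dok2 was lost (0.19, adjusted p = 0.0522) and Syk was kept, whereas with the length reported Syk was lost (-0.16, adjusted p = 0.0612) and Dok2 was kept. Lilrb4a changed sign to 0.041 without TMAO replicate 2 (adjusted p = 0.825) and to 0.037 with a GC trend removed (adjusted p = 0.88), it was called lower at -0.43 without TMAO replicate 1, and over all alternatives its adjusted p ran from 0.0195 to 0.88. With the length trend removed, by the length reported and by the one first used, values reversed to -0.189 and -0.195 for C1qc, -0.33 and -0.31 for Tyrobp, -0.010 and -0.044 for Cd200, and 0.11 and 0.24 for Ptpn11. Csf1r (0.059) and Sirpb1b (-0.028) reversed with the length reported, and Mmp8 (-0.0083) with the one first used. Removing a GC trend reversed C1qc (-0.011) and Tyrobp (-0.0082). Mag, Cmah, Lilr4b and Mrc1 were the remaining exceptions. The cause was not tested. The length-trend value of Cd33 was the highest over its alternatives, 0.99. With the length trend removed, Cd300a was at -0.36 and Cd200r1 at -0.87, and with a GC trend removed Cd200r1 was at -0.31, each still called lower. Sirpa ran from -0.79 to -0.41 over its alternatives. Siglec1 ran from -2.16 to -1.62 with a library left out and from -2.16 to -1.33 over all alternatives.

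Groups share replicate numbers in the titles, but deviations of same-numbered libraries from their group means correlated at 0.032, 0.133 and -0.067, and control replicate 3 correlated best with TMAO replicate 1 (0.159), so the numbers were not taken as pairs. With a replicate block, 9723 genes and 9 receptor genes were called. Among these 60 genes the block ended the calls of Mag (adjusted p = 0.0827) and C1qc (adjusted p = 0.0592) and made one of Sirpb1b (adjusted p = 0.0337).

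With 3 libraries in each group, exact permutation of a single value cannot go below p = 0.1. Siglech and Siglecg had 0 and 4 counts over the 3 control libraries, which limits their fold changes. Both, Cd300c, and markers with few or no control counts such as Pax5 and Nkg7 passed the filter on low counts only through TMAO libraries. A lower call was not open to such genes.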
